A study of Sus scrofa with 32 samples.

Results

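The genes of 10 partners of the muscle transcription factor MyoD were examined in porcine muscle satellite cells. They were the E protein genes TCF3, TCF4 and TCF12, the TEAD family genes TEAD1 and TEAD4, the transcription factor genes SRF and KLF5, and the chromatin cofactor genes SMYD1, SMARCD3 and CARM1. They were chosen by name, as 10 of the 19550 protein-coding genes of the pig gene table. Each was followed through the peaks inside its Sscrofa11.1 gene span extended by 5 kb on each side, called its window here.

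CUT&Tag, which tags the DNA beside an antibody-bound histone, had been run for H3K4me3, H3K27ac and H3K27me3, with 8 libraries a mark. Per the labels, CBP cells were given SGC-CBP30, a bromodomain inhibitor of CBP and p300, which acetylate histones, and WT cells were not. The 4 conditions had 2 libraries each: CBP at 60 h of differentiation, WT at 60 h, CBP at 0 h and WT at 0 h. The labels give 48 h of inhibitor for proliferating cells and 60 h for differentiating cells, and do not say whether the cells of the 60 h group had also been treated while proliferating, nor name a vehicle for WT. The question, per the series title, was how CBP inhibition bears on differentiation of these cells.

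MyoD is a basic helix-loop-helix protein that binds DNA as a dimer with an E protein and turns on muscle genes when satellite cells, which regenerate skeletal muscle, leave the cell cycle and differentiate. TEAD factors, SRF and KLF5 bind their own sites beside it, and SMYD1, SMARCD3 and CARM1 act on histones or nucleosomes at the same genes. H3K4me3 is typical of active promoters, H3K27ac of active promoters and enhancers, and H3K27me3 of genes silenced by Polycomb complexes.

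The measurement was the length under listed peaks in a window, in kb. It was compared with limma on the log2 of base pairs plus 500, over the genes that had 200 bp or more in 2 or more of the 8 libraries of a mark, and a gene was called at a Benjamini-Hochberg adjusted p below 0.05. All log2 changes below are on that scale, and every adjusted p is from that fit. Read depth is unknown, nor is it stated that the 2 libraries of a group are separate cultures, so the tests measure the spread between libraries. The comparisons share the WT libraries and are not independent of each other. In bulk libraries, fewer cells with a mark and less of it per cell cannot be told apart.

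Listed length differed between conditions over the whole genome. H3K4me3 peaks covered 27.5 to 27.6 Mb in CBP at 60 h, 26.5 to 27.4 Mb in WT at 60 h, 17.3 to 17.4 Mb in CBP at 0 h and 21.8 to 22.1 Mb in WT at 0 h. H3K27ac peaks covered 9.26 to 11.7 Mb in CBP at 60 h, 17.96 to 20.2 Mb in WT at 60 h, 4.77 to 6.30 Mb in CBP at 0 h and 11.6 to 12.97 Mb in WT at 0 h. The median log2 change of all genes in CBP against WT at 0 h was -0.19 for H3K4me3 and -0.46 for H3K27ac, and quantile scaling of the libraries moved it to 0.06 and 0.08. In WT at 60 h against 0 h the medians of 0.18 and 0.69 moved to -0.07 and 0.01, and the H3K27ac median of -0.72 in CBP against WT at 60 h moved to 0.03. Where a member's call ended or turned under that scaling, its value is given beside it.

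Muscle markers and most fibroblast markers were found in the H3K4me3 lists. Of 7 markers of muscle progenitors and myoblasts, 7 had H3K4me3 in both libraries of CBP and of WT at 60 h, 5 in CBP at 0 h and 6 in WT at 0 h, with MYOG at 0 in every 0 h library and MYOD1 at 0 in CBP at 0 h. No H3K4me3 was listed at 4 endothelial or 4 neural markers in any library. Of 4 blood markers, 2 had H3K4me3 in both libraries of CBP and of WT at 60 h and 1 in both libraries of CBP and of WT at 0 h, summing to 4.22 to 7.40 kb a library, with PTPRC and CSF1R at 0 throughout. Of 4 adipocyte markers, 2 had it in CBP at 60 h and 1 in each other condition, with FABP4 and ADIPOQ at 0 throughout. Fibroblast markers were present: 5 of 6 had H3K4me3 in both libraries of each condition. The lists therefore cannot tell muscle cells from a mixture with fibroblasts.

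H3K27me3 was listed at none of the 10 members in any of its 8 libraries, as at 14489 of all 19550 genes (74.1%). H3K4me3 was listed at 9 members, all but TEAD4. The order of H3K4me3 by share of the window covered in WT at 60 h was SRF at 31.7% ± 0.583, SMARCD3 at 19.1% ± 0.202, KLF5 at 16.6% ± 0.061, TCF3 at 10.5% ± 0.401, CARM1 at 8.14% ± 0.312, TCF4 at 3.31% ± 0.149, SMYD1 at 2.43% ± 0.0419, TEAD1 at 2.15% ± 0.187 and TCF12 at 1.89% ± 0.0335 (mean ± SD, n = 2). No neighbours in this order overlapped between libraries, and TCF4, TCF12 and TEAD1 were the genes with the longest windows, 284.1 to 384.1 kb. The shares of SRF, SMARCD3, TCF3 and CARM1 include regions that touch another gene. By H3K27ac, TEAD1 came first at 11.4% ± 0.481 of its window, followed by KLF5 at 10.3% ± 0.27, CARM1 at 9.68% ± 0.302, SMARCD3 at 8.65% ± 0.546, TEAD4 at 7.53% ± 2.06, TCF4 at 7.45% ± 0.6, TCF12 at 6.46% ± 0.0749, SRF at 3.93% ± 0.635, SMYD1 at 1.25% ± 0.0113 and TCF3 at 0.748% ± 0.252. In that order TEAD4 overlapped SMARCD3, TCF4 and TCF12.

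**Figure D1:**
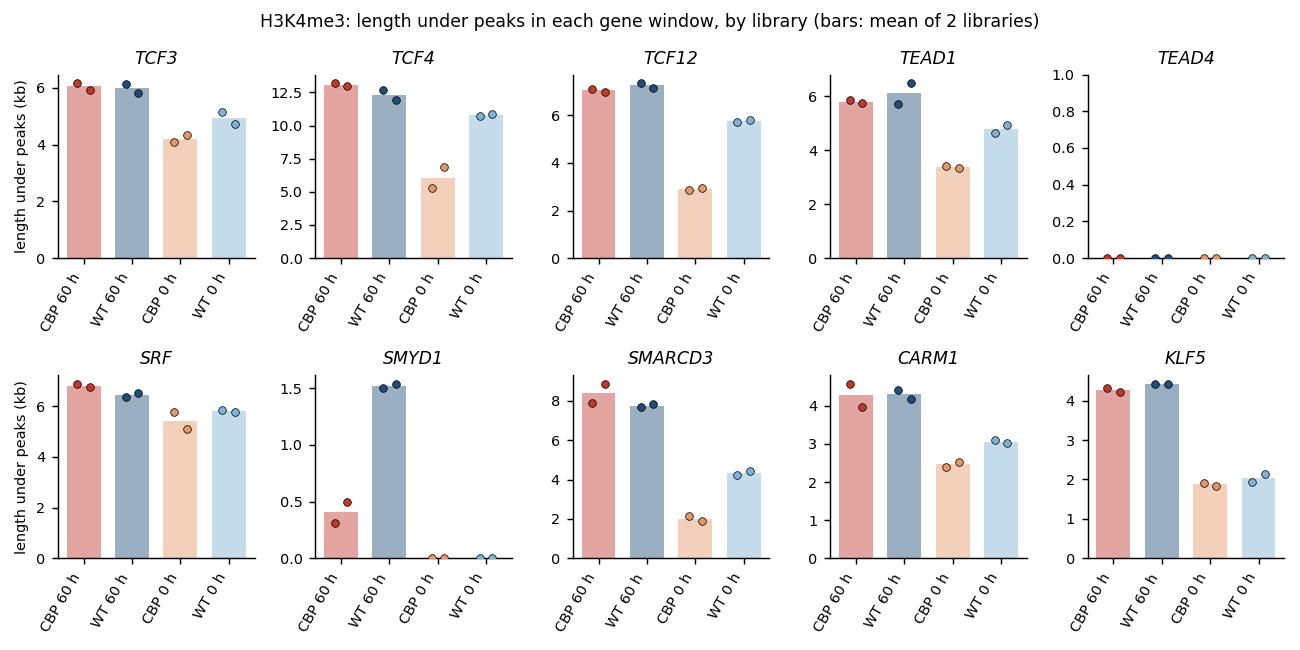
H3K4me3 length under peaks (kb) in the window of each of the 10 members; bars are means of 2 libraries, points are libraries, and each panel has its own axis. SMYD1 was listed only at 60 h, where CBP libraries (0.312 and 0.501 kb) lay below WT libraries (1.503 and 1.54 kb), and TEAD4 was at 0 in all 8 libraries.

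During differentiation of WT cells the marks became wider at most members. H3K4me3 was called higher at 60 h than at 0 h for TCF3, TCF12, TEAD1, SMYD1, SMARCD3, CARM1 and KLF5, which is 7 of the 9 members tested, while 42.2% of all 13394 genes tested were called higher. H3K27ac was called higher for TCF12, TEAD1, TEAD4, SMYD1, SMARCD3, CARM1 and KLF5, which is 7 of 10, against 46.8% of all 10294 genes tested. The median member changed by 0.32 for H3K4me3 and 1.41 for H3K27ac, beside 0.18 and 0.69 for all genes. In H3K27ac, TCF3, TEAD4, SMYD1, SMARCD3 and CARM1 were at 0 in every 0 h library and entered the test through 60 h libraries alone, so these members could not have been called lower, and their part of the median depends on the added 500 bp. The same held for SMYD1 in H3K4me3. Under quantile scaling 4 members stayed higher for H3K4me3 and 5 for H3K27ac, with TCF4 then called lower in H3K27ac.

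Members with less H3K4me3 in CBP than in WT were found mainly at 0 h, and members with less H3K27ac at both times. H3K4me3 in CBP against WT at 0 h was called lower for TCF3, TCF4, TCF12, TEAD1, SMARCD3 and CARM1, which is 6 of 9, against 41.7% of all genes, and no member was called higher, against 1.19%. Under quantile scaling 3 members were called lower and 1, SRF, higher. H3K27ac at 0 h was called lower for TCF4, TCF12 and TEAD1, which is 3 of 10, against 32.6% of all genes, and none was called higher, against 1.4%. Under quantile scaling 2 were called lower. With 5 of the 10 members at 0 in both 0 h groups, these 3 and the short peaks of SRF and KLF5 were all that could fall.

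At 60 h a difference in H3K4me3 between CBP and WT cells was called at SMYD1 alone, which was lower (1 of 9 members, against 7.36% of all genes lower and 10.3% higher). H3K27ac at 60 h was called lower in CBP for TCF12, SMYD1, SMARCD3, CARM1 and KLF5, which is 5 of 10, against 45.8% of all genes, and the median member changed by -0.60, beside -0.72 for all genes. SMYD1 entered this test through the WT libraries of 60 h alone, so it could only have been called lower. The share of members called was close to that of all genes, and TCF12 was called at both times. The second CBP library at 60 h, with 13750 H3K27ac peaks beside 17019 in the first, had none at TCF3, SRF, SMARCD3 and KLF5, where the first had some.

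**Figure D2:**
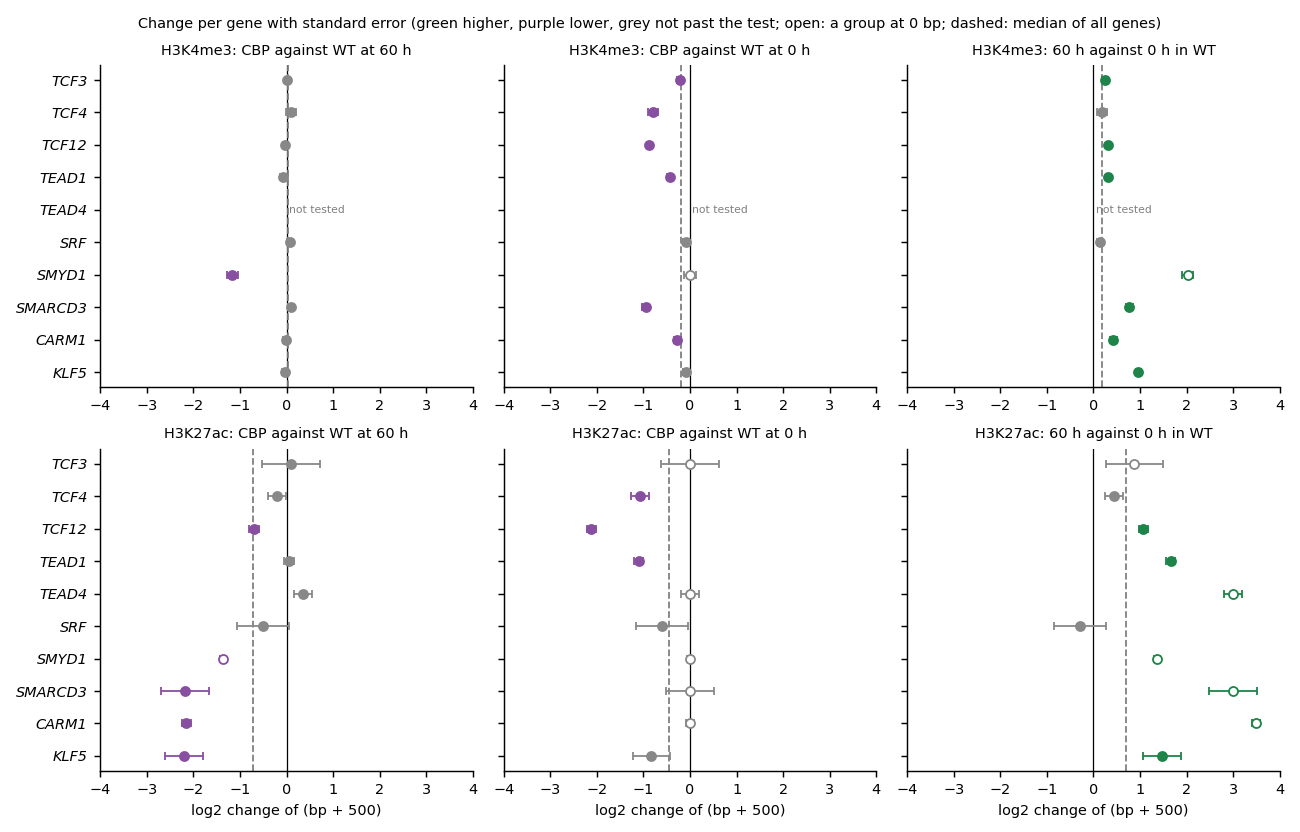
Log2 change of base pairs plus 500 for each member with its standard error, in CBP against WT at 60 h, CBP against WT at 0 h and WT at 60 h against 0 h, for H3K4me3 (top) and H3K27ac (bottom); filled coloured points were called, open points have a group at 0 bp and the dashed line is the median of all genes. At 60 h the H3K4me3 points other than SMYD1 lie near 0, while H3K27ac of SMARCD3, CARM1 and KLF5 lies near -2.

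TCF12, whose product HEB is an E protein that pairs with MyoD in mouse myoblasts, fell in both marks at 0 h. Its H3K4me3 was 2.85 and 2.96 kb in CBP at 0 h, against 5.71 and 5.78 kb in WT at 0 h (log2 change -0.88, SE 0.04, adjusted p = 7.89e-05). Its H3K27ac was 2.24 and 2.32 kb in CBP at 0 h, against 11.4 and 11.7 kb in WT at 0 h (log2 change -2.12, SE 0.10, adjusted p = 0.000397). The groups did not overlap in either mark, and both calls held under quantile scaling. With windows cut to the gene ends, the H3K27ac change was -0.05 (adjusted p = 1), and the regions listed in both WT libraries and neither CBP library at 0 h lay inside the gene.

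At 60 h TCF12 was called lower in CBP in H3K27ac and not in H3K4me3. H3K4me3 was 7.11 and 6.99 kb in CBP at 60 h, against 7.35 and 7.16 kb in WT at 60 h (adjusted p = 0.536), and the CBP libraries were the lower pair. H3K27ac was 16.6 and 13.6 kb in CBP at 60 h, against 24.6 and 25.0 kb in WT at 60 h (log2 change -0.70, SE 0.10, adjusted p = 0.00392). That call ended under quantile scaling (-0.23, adjusted p = 0.26), when all lists were cut to equal length (-0.42, adjusted p = 0.117) and with gene ends only (-0.15, adjusted p = 0.787). In WT, TCF12 rose at 60 h against 0 h in H3K4me3 (0.31, adjusted p = 0.00103) and in H3K27ac (1.07, adjusted p = 0.000681), and neither call held under quantile scaling (0.06, adjusted p = 0.229, and 0.33, adjusted p = 0.0968).

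The TCF12 gene spans 114682299 to 115056363 on chromosome 1. One H3K4me3 region lay at its upper-coordinate end, 115053883 to 115057047, and a second inside it, 114748042 to 114752353, with its middle 67.9 kb from the lower-coordinate end. The gene table gives no strand, so neither is named a promoter here. The inner region had 4 and 3.98 kb in CBP at 60 h, 4.31 and 4.12 kb in WT at 60 h, 1.38 and 1.31 kb in CBP at 0 h and 3.18 and 3.05 kb in WT at 0 h. H3K27ac over it, at 114747062 to 114752517, had 3.56 and 3.50 kb in CBP at 60 h, 5.37 and 5.32 kb in WT at 60 h, none in CBP at 0 h and 2.53 and 2.44 kb in WT at 0 h. The neighbouring H3K27ac region at 114752753 to 114755918 was likewise missing from both CBP libraries at 0 h.

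TCF4, the gene of the E protein E2-2, had its H3K4me3 in 6 regions, the widest at 105073527 to 105080275 on chromosome 1 over its upper-coordinate end and at 104813336 to 104818204 inside it. At 0 h the total was 5.27 and 6.88 kb in CBP, against 10.7 and 10.9 kb in WT (log2 change -0.79, SE 0.11, adjusted p = 0.00229), with no overlap. At 60 h it had 13.2 and 13 kb in CBP, against 12.7 and 11.9 kb in WT, with the CBP libraries the higher pair (adjusted p = 0.634). The difference between CBP and WT differed between the times by 0.88 (SE 0.15, adjusted p = 0.00663), a call that ended with gene ends only (0.19, adjusted p = 0.0762).

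H3K27ac at TCF4 was also lower in CBP at 0 h and not called at 60 h. It was 11.4 and 7.61 kb in CBP at 0 h, against 21.0 and 19.6 kb in WT at 0 h (log2 change -1.08, SE 0.19, adjusted p = 0.0106; without the first WT library the adjusted p was 0.0687). At 60 h it was 24.7 and 23.0 kb in CBP, against 29.2 and 26.1 kb in WT (log2 change -0.21, adjusted p = 0.407), though it was called lower among peaks of -log10 q 5 or more (-0.32, adjusted p = 0.026) and with gene ends only (-0.52, adjusted p = 0.0375). The difference between the times was not called but passed in 6 alternatives, from 0.42 under quantile scaling (adjusted p = 0.0489) to 2.63 at that q (adjusted p = 4.35e-05). Acetylation in WT at 60 h against 0 h was not called (0.44, adjusted p = 0.105), and its direction depended on the setting. It was called lower under quantile scaling (-0.48, adjusted p = 0.00543) and higher among peaks of -log10 q 5 or more (0.67, adjusted p = 0.00151), when lists were cut to equal length (adjusted p = 0.0355), without the 5 kb extension (adjusted p = 0.042), with a replicate block (adjusted p = 0.0494) and without either CBP library of 0 h (adjusted p = 0.0157 each). Of its 29 H3K27ac regions 10 were listed in all 8 libraries, against 2 of 31 for TCF12 and 4 of 58 for TEAD1.

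TCF3, which encodes the E proteins E12 and E47, showed small changes. Its H3K4me3 was 4.08 and 4.34 kb in CBP at 0 h, against 5.17 and 4.73 kb in WT at 0 h (log2 change -0.21, SE 0.06, adjusted p = 0.0268). The change was close to the all-gene median of -0.19 and turned to 0.07 under quantile scaling (adjusted p = 0.391). It lost its call among peaks of -log10 q 5 or more and with lists cut to equal length (-0.11, adjusted p = 0.432 in each). The call also ended without the first CBP or the first WT library of 0 h (-0.17 and -0.15). At 60 h TCF3 had 6.17 and 5.94 kb in CBP, against 6.15 and 5.82 kb in WT, and the groups overlapped (adjusted p = 0.893). Its rise in WT at 60 h against 0 h was 0.25 (adjusted p = 0.0125), 0.00 under quantile scaling (adjusted p = 0.961) and without the call when the first 60 h library or the second 0 h library was left out (adjusted p = 0.0733 and 0.0623).

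Acetylation at TCF3 was sparse, with 1.44 and 0 kb in CBP at 60 h, 0.530 and 0.326 kb in WT at 60 h and none at 0 h. It was not called in CBP against WT at 60 h, but without the first CBP library, leaving the one at 0, it was called lower (adjusted p = 0.0105), and without the second it was called higher (1.07, adjusted p = 0.0091). H3K4me3 of TCF3 comprised 2 regions, at 76858226 to 76861597 on chromosome 2 over the lower-coordinate end, and at 76902361 to 76905724, where the gene LOC100524239 also lies. The second region was 2.83 and 2.81 kb in CBP at 60 h, 3.21 and 2.78 kb in WT at 60 h, 2.27 and 2.34 kb in CBP at 0 h and 2.44 and 2.64 kb in WT at 0 h, and it cannot be assigned to one of the overlapping genes.

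**Figure D3:**
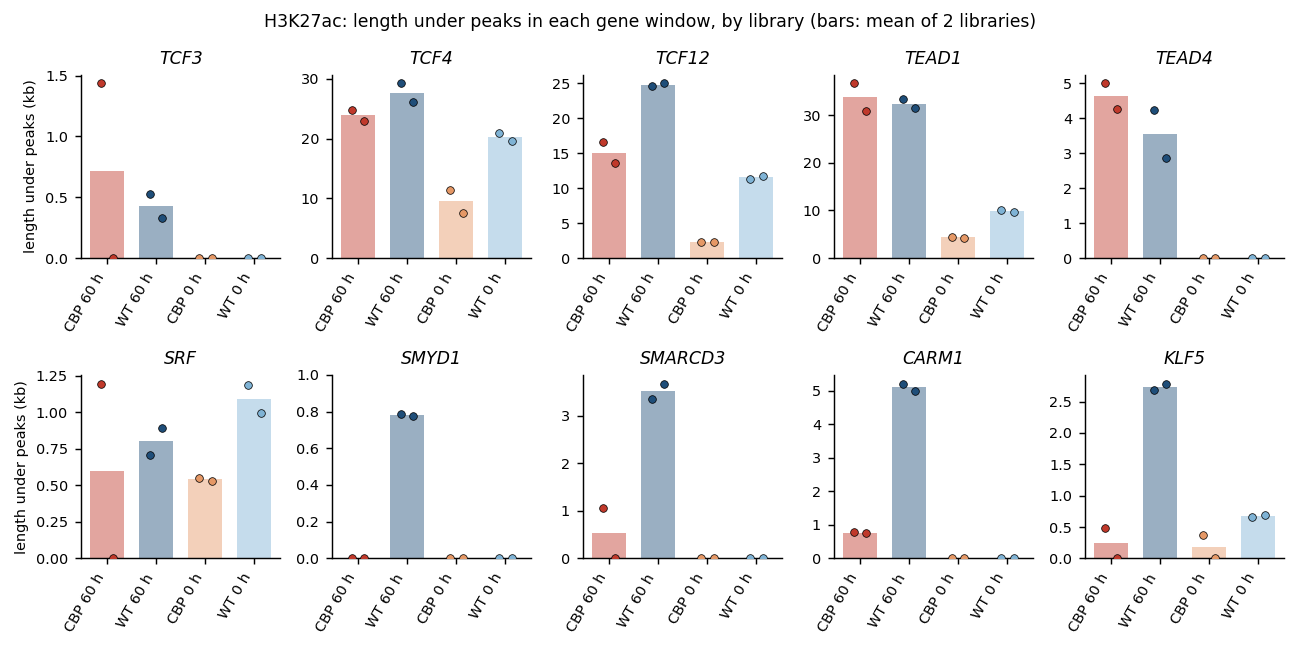
H3K27ac length under peaks (kb) in the window of each of the 10 members; bars are means of 2 libraries, points are libraries, and each panel has its own axis. SMYD1, SMARCD3, CARM1 and KLF5 were highest in WT at 60 h, whereas TEAD1 and TEAD4 were about as high in CBP as in WT at that time.

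TEAD1 and TEAD4 encode DNA-binding partners of the coactivators YAP and TAZ that bind the MCAT elements of muscle genes. TEAD1 had broad H3K27ac at 60 h: 36.7 and 30.9 kb in CBP at 60 h, 33.4 and 31.5 kb in WT at 60 h, 4.45 and 4.29 kb in CBP at 0 h and 10.1 and 9.78 kb in WT at 0 h. The 60 h groups overlapped (log2 change 0.05, adjusted p = 0.707). At 0 h the CBP libraries were lower (-1.10, SE 0.10, adjusted p = 0.00132), a call that ended under quantile scaling (-0.30, adjusted p = 0.101) and when lists were cut to equal length (-0.37, adjusted p = 0.281).

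TEAD1 acetylation rose in WT at 60 h against 0 h by 1.66 (SE 0.10, adjusted p = 0.000124). The rise also held under quantile scaling (0.97, adjusted p = 0.000933). Of its 58 regions, 19 were in both WT libraries at 60 h and in neither at 0 h, and 3 were the reverse. The shares over all H3K27ac regions were 21.9% and 13.9%. H3K27ac of TEAD1 was spread along the gene, with at most 15.7% of it under an H3K4me3 peak of the same condition and replicate number. The region at 46665198 to 46668890 on chromosome 2, near the upper-coordinate end, had 3.35 and 3.19 kb in CBP at 60 h, 3.64 and 3.48 kb in WT at 60 h, none in CBP at 0 h and 0.430 and 1.13 kb in WT at 0 h.

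H3K4me3 at TEAD1 was concentrated at that end, 46665332 to 46671573. The gene's total was 3.44 and 3.35 kb in CBP at 0 h, against 4.63 and 4.95 kb in WT at 0 h (log2 change -0.44, SE 0.06, adjusted p = 0.00269; -0.19 under quantile scaling, adjusted p = 0.0914). At 60 h it was 5.85 and 5.75 kb in CBP, against 5.74 and 6.49 kb in WT, and the groups overlapped (adjusted p = 0.524). In WT it rose by 0.32 at 60 h against 0 h (adjusted p = 0.00743), and by 0.07 under quantile scaling (adjusted p = 0.454).

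TEAD4, which in mouse myoblasts is a MyoD target, had acetylation without H3K4me3. Its H3K27ac was 5.00 and 4.25 kb in CBP at 60 h, 4.24 and 2.86 kb in WT at 60 h and 0 in all 4 libraries at 0 h. The rise in WT was called (adjusted p = 0.000146), and CBP did not differ from WT at 60 h past the threshold (0.36, adjusted p = 0.17), although it was called higher in CBP under quantile scaling (0.93, adjusted p = 0.0116), when lists were cut to equal length (0.51, adjusted p = 0.0293) and without the first WT library (0.60, adjusted p = 0.0495). All 12 regions lay at 60 h only, the widest at 67135785 to 67136939 and 67163327 to 67164470 on chromosome 5, each in all 4 libraries of that time. No H3K4me3 peak lay inside the window, and the nearest were 23.3 to 24.3 kb below and 21.6 to 25.4 kb above the gene span in the 8 libraries.

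**Figure D4:**
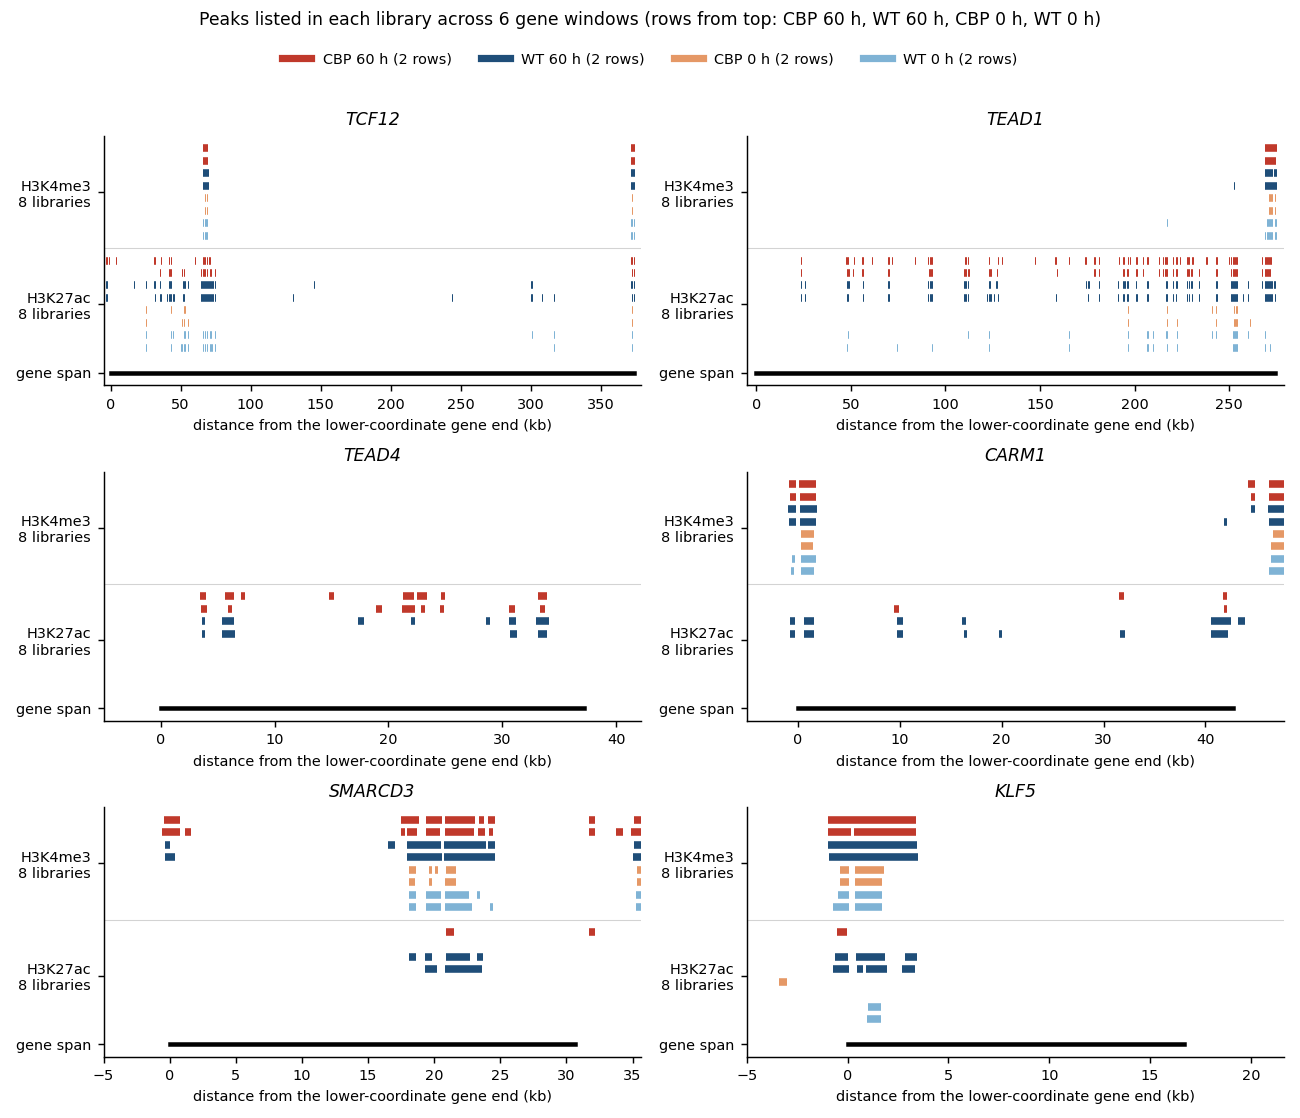
Peaks of each library along 6 windows, plotted by distance in kb from the lower-coordinate gene end, with the 8 H3K4me3 libraries above the 8 H3K27ac libraries and the gene span as a black bar. H3K27ac of TEAD4 is present at 60 h only with no H3K4me3, and the CARM1, SMARCD3 and KLF5 windows hold the most H3K27ac in WT at 60 h.

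SRF, which binds CArG boxes and drives actin and other contractile genes with the MRTF coactivators, was called in none of the comparisons. Its H3K4me3 was 6.89 and 6.74 kb in CBP at 60 h, 6.37 and 6.54 kb in WT at 60 h, 5.77 and 5.10 kb in CBP at 0 h and 5.86 and 5.79 kb in WT at 0 h. The CBP libraries were the higher pair at 60 h and the lower pair at 0 h, and neither difference passed the test (adjusted p = 0.44 and 0.231). At 0 h the region over the lower-coordinate end, 38212396 to 38216893 on chromosome 7, had 3.50 and 3.07 kb in CBP, against 4.06 kb in each WT library. The region over the upper end, 38223090 to 38225596, touches the neighbouring gene CUL9 and had 2.26 and 2.03 kb in CBP, against 1.80 and 1.73 kb in WT. The regions thus moved in opposite directions at 0 h within the total, and neither was tested on its own. The 0 h change of -0.09 became 0.20 under quantile scaling, with an adjusted p of 0.0427.

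Acetylation at SRF was sparse. A region over the upper-coordinate end, 38222746 to 38223934 on chromosome 7, was listed at 0 h only, with 0.552 and 0.532 kb in CBP and 1.18 and 0.992 kb in WT. A region near the lower-coordinate end, 38213987 to 38214919, was listed at 60 h only, with 0.496 and 0 kb in CBP and 0.710 and 0.590 kb in WT. Of the other 2 regions, 38216266 to 38216593 was listed at 60 h in 1 library each of CBP (0.293 kb) and WT (0.303 kb), and 38223968 to 38224374, just beyond the upper end and touching CUL9, in the first CBP library of 60 h (0.407 kb). The upper end is shared with the window of the neighbouring gene CUL9, which begins at 38224023. Total H3K27ac of SRF was 1.20 and 0 kb in CBP at 60 h, 0.710 and 0.893 kb in WT at 60 h, 0.552 and 0.532 kb in CBP at 0 h and 1.18 and 0.992 kb in WT at 0 h. It did not differ past the threshold in CBP against WT at 60 h (adjusted p = 0.503) or at 0 h (adjusted p = 0.518), nor in WT at 60 h against 0 h (adjusted p = 0.691). Leaving out a CBP library of 60 h moved these values: without the first, the 60 h change of -0.50 became -1.38 (adjusted p = 0.00293) and the difference between the times went to -0.77 (adjusted p = 0.0391), and without the second that difference was 0.99 (adjusted p = 0.0227). The 0 h change of -0.60 was called without either of them (adjusted p = 0.0212 and 0.0214).

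KLF5, a zinc finger factor that acts with MyoD and MEF2 in mouse muscle differentiation, had wider H3K4me3 at 60 h than at 0 h in CBP and in WT cells. Its single region over the lower-coordinate gene end, 45369039 to 45373507 on chromosome 11, held 4.33 and 4.22 kb in CBP at 60 h, 4.41 and 4.43 kb in WT at 60 h, 1.92 and 1.84 kb in CBP at 0 h and 1.93 and 2.15 kb in WT at 0 h. The rise in WT was 0.96 (adjusted p = 5.1e-05), and CBP did not differ from WT past the threshold at 60 h (adjusted p = 0.637) or at 0 h (adjusted p = 0.201).

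H3K27ac at KLF5 was lower in CBP at 60 h. It was 0.492 and 0 kb in CBP at 60 h, 2.69 and 2.79 kb in WT at 60 h, 0.370 and 0 kb in CBP at 0 h and 0.653 and 0.688 kb in WT at 0 h. All of the WT acetylation lay under the H3K4me3 region, and the peak of CBP at 0 h lay outside it. The change in CBP against WT at 60 h was -2.20 (SE 0.40, adjusted p = 0.00854), without overlap. It passed under quantile scaling (-1.46, adjusted p = 0.0259) and missed the threshold with 100 bp added in place of 500 (adjusted p = 0.0547) and without either WT library (adjusted p = 0.0573 and 0.0521). The rise in WT of 1.47 (adjusted p = 0.0274) missed the threshold with 100 bp (adjusted p = 0.214), under quantile scaling (adjusted p = 0.0798) and without any 1 of the 4 WT libraries (adjusted p = 0.0995 to 0.107).

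SMYD1 encodes a histone methyltransferase made in heart and skeletal muscle, and its marks appeared only in differentiating cells. H3K4me3 was 0.312 and 0.501 kb in CBP at 60 h, against 1.503 and 1.54 kb in WT at 60 h, and 0 in all 4 libraries at 0 h (CBP against WT at 60 h, log2 change -1.16, SE 0.12, adjusted p = 0.00176). H3K27ac was 0 in both CBP libraries at 60 h, against 0.785 and 0.775 kb in WT at 60 h (adjusted p = 0.00011), and again 0 at 0 h. Both marks sat in 1 region over the upper-coordinate end of the gene, 57917424 to 57918972 on chromosome 3. SMYD1 was the only member whose H3K4me3 and H3K27ac were both called lower in CBP at 60 h. It entered the H3K27ac test through the WT libraries of 60 h alone, so it could not have been called higher in CBP. Under quantile scaling the H3K4me3 change was -1.35 (adjusted p = 0.000446), while the fitted H3K27ac change shrank to -0.40 (adjusted p = 0.014), against -1.36 without it, and both stayed called. The H3K4me3 call held without any 1 library, whereas H3K27ac of SMYD1 could not be tested without a WT library of 60 h. Within their own lists, the SMYD1 H3K4me3 peaks were stronger by the authors' deposited -log10 p than 7.85 and 14.2% of peaks in CBP at 60 h and than 41.3 and 39.9% of peaks in WT at 60 h.

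SMARCD3 encodes BAF60C, the SWI/SNF subunit that binds MyoD and helps it open chromatin in mouse myoblasts. Its H3K4me3 was 7.90 and 8.87 kb in CBP at 60 h, 7.70 and 7.81 kb in WT at 60 h, 2.14 and 1.88 kb in CBP at 0 h and 4.22 and 4.44 kb in WT at 0 h. CBP fell below WT at 0 h (-0.95, SE 0.07, adjusted p = 0.00037) and not at 60 h (0.10, adjusted p = 0.386), and the difference between the times was 1.05 (adjusted p = 0.00115). The widest region lay inside the gene, at 5979220 to 5983048 on chromosome 18, with 3.18 and 3.11 kb in CBP at 60 h, 3.64 and 3.80 kb in WT at 60 h, 0.803 and 0.854 kb in CBP at 0 h and 2.08 and 2.29 kb in WT at 0 h. With gene ends only, the 0 h change was -0.15 (adjusted p = 0.616) and a rise in CBP at 60 h was called (0.99, adjusted p = 0.0267). The region 5957893 to 5959238 at the lower-coordinate end had 1.23 and 1.34 kb in CBP at 60 h, 0.416 and 0.740 kb in WT at 60 h and none at 0 h. A further region in the window, 5993358 to 5995583, touches the neighbouring gene ABCF2.

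Acetylation at SMARCD3 was lower in CBP at 60 h. H3K27ac was 1.06 and 0 kb in CBP at 60 h, against 3.36 and 3.67 kb in WT at 60 h (log2 change -2.18, SE 0.52, adjusted p = 0.02), and 0 at 0 h. The call ended with 100 bp added (adjusted p = 0.0676) and without either WT library (adjusted p = 0.0932 and 0.0924), and held under quantile scaling (-1.40, adjusted p = 0.0448). In WT all of this acetylation lay under H3K4me3, with 2.24 and 2.76 kb at 5979280 to 5982141.

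CARM1, also called PRMT4, methylates arginines of histone H3 and is a coactivator of MEF2 in mouse muscle cells. Its H3K27ac was lower in CBP at 60 h, with 0.783 and 0.751 kb in CBP at 60 h, against 5.22 and 5.00 kb in WT at 60 h, and 0 in all libraries at 0 h. The 60 h difference was -2.15 (SE 0.09, adjusted p = 0.00011), and -1.38 under quantile scaling (adjusted p = 0.00263). Regions at 69602688 to 69603693 and 69601379 to 69601858 on chromosome 2, beside the lower-coordinate gene end, were listed in both WT libraries at 60 h and in no other. Another region, 69642629 to 69644576, touches the gene YIPF2 and had 0.336 and 0.295 kb in CBP at 60 h, against 1.95 and 1.70 kb in WT at 60 h.

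H3K4me3 at CARM1 did not differ past the threshold at that time. It was 4.58 and 3.96 kb in CBP at 60 h, against 4.41 and 4.18 kb in WT at 60 h, and the groups overlapped (adjusted p = 0.955). At 0 h it was 2.40 and 2.53 kb in CBP, against 3.10 and 3.03 kb in WT (-0.27, SE 0.07, adjusted p = 0.0234). That call ended without the 5 kb extension (-0.13, adjusted p = 0.353) and under quantile scaling (-0.04, adjusted p = 0.689). It also ended among peaks of -log10 q 5 or more (-0.14, adjusted p = 0.0696) and with lists cut to equal length (-0.14, adjusted p = 0.0727). Nor did it hold without any 1 of the 4 libraries of that time (-0.30 to -0.24). The rise in WT was 0.43 (adjusted p = 0.00342). The widest region of this window, 69648240 to 69651054, lies beyond the CARM1 span, over YIPF2 and TIMM29. The window also reaches C2H19orf38.

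The difference between CBP and WT was itself compared between 60 h and 0 h for every member. For H3K4me3 it was called higher for TCF4, TCF12 (0.84, adjusted p = 0.000424), TEAD1 (0.38, adjusted p = 0.0188) and SMARCD3, against 37.9% of all genes, and TEAD1 lost the call under quantile scaling (0.08, adjusted p = 0.591) and without any 1 of 3 libraries (adjusted p = 0.0536 to 0.0585). It was called lower for SMYD1 (adjusted p = 0.00354), against 3.56% of all genes, but SMYD1 had no H3K4me3 at 0 h in either group, so this value repeats the 60 h change. For H3K27ac it was called higher for TCF12 (1.41, adjusted p = 0.00164) and TEAD1 (1.15, adjusted p = 0.00287), against 11.5% of all genes, and lower for SMYD1 and CARM1 (adjusted p = 0.000609 each), against 18.9%. SMYD1 and CARM1 had no acetylation at 0 h in either group, so their values repeat the 60 h changes. The TCF12 value was -0.10 with gene ends only (adjusted p = 0.918), and TEAD1 missed the threshold there (0.68, adjusted p = 0.164) and with lists of equal length (0.89, adjusted p = 0.0581).

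Marks at markers of another cell type also differed between conditions, as did listed length over the whole genome. The members did not all change alike: H3K27ac in CBP against WT at 60 h was called lower for 5 of 10, and not for TEAD1 (0.05) or TEAD4 (0.36). Summed H3K4me3 of the fibroblast markers was 17.6 and 16.9 kb in CBP at 60 h, 18.7 and 17.7 kb in WT at 60 h, 10.2 and 9.69 kb in CBP at 0 h and 15.6 and 15.7 kb in WT at 0 h. Their summed H3K27ac was 10.4 and 9.43 kb in CBP at 60 h, 26.9 and 22.4 kb in WT at 60 h, 0.922 and 1.39 kb in CBP at 0 h and 5.77 and 5.43 kb in WT at 0 h, with 2, 4, 1 and 3 of the 6 genes listed in both libraries and PDGFRA and THY1 at 0 throughout. The muscle markers summed to 22.5 and 17.8 kb in CBP at 60 h, 36.1 and 33.1 kb in WT at 60 h, 7.93 and 5.19 kb in CBP at 0 h and 17.9 and 16.5 kb in WT at 0 h. The summed H3K4me3 of the muscle markers was 28.9 and 30.01 kb in CBP at 60 h, 38.5 and 36.9 kb in WT at 60 h, 12.7 and 12.5 kb in CBP at 0 h and 24.6 and 25 kb in WT at 0 h. The part of either list in the members' values was not tested.

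Merged over the 8 libraries, the windows held 154 H3K27ac regions, of which 118 lay in TCF4, TCF12 and TEAD1, and 30 H3K4me3 regions. Of the H3K4me3 regions 16 were listed in all 8 libraries, and of the H3K27ac regions also 16. In both libraries of a condition, 62 H3K27ac regions were listed in CBP at 60 h, 85 in WT at 60 h, 23 in CBP at 0 h and 43 in WT at 0 h. Regions listed in both libraries of one group and neither of the other are called gained or lost here.

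CBP cells had lost 17 of the 154 H3K27ac regions at 0 h (11%, against 16.4% of all regions) and gained 1 (0.649%, against 2.02%). They had lost 18 at 60 h (11.7%, against 17.6%) and gained 9 (5.84%, against 3.57%), of which 5 were in TEAD1, 2 in TCF12 and 2 in TEAD4. In WT, 45 regions were gained at 60 h against 0 h (29.2%, against 21.9%) and 7 lost (4.55%, against 13.9%). Of the 30 H3K4me3 regions, 2 were lost in CBP at 0 h (6.67%, against 7.47% of all regions), 1 was gained (3.33%, against 4.67%) and none lost (against 4.16%) in CBP at 60 h, and in WT 2 were gained (6.67%, against 7.91%) and 1 was lost (3.33%, against 4.58%) at 60 h against 0 h.

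**Figure D5:**
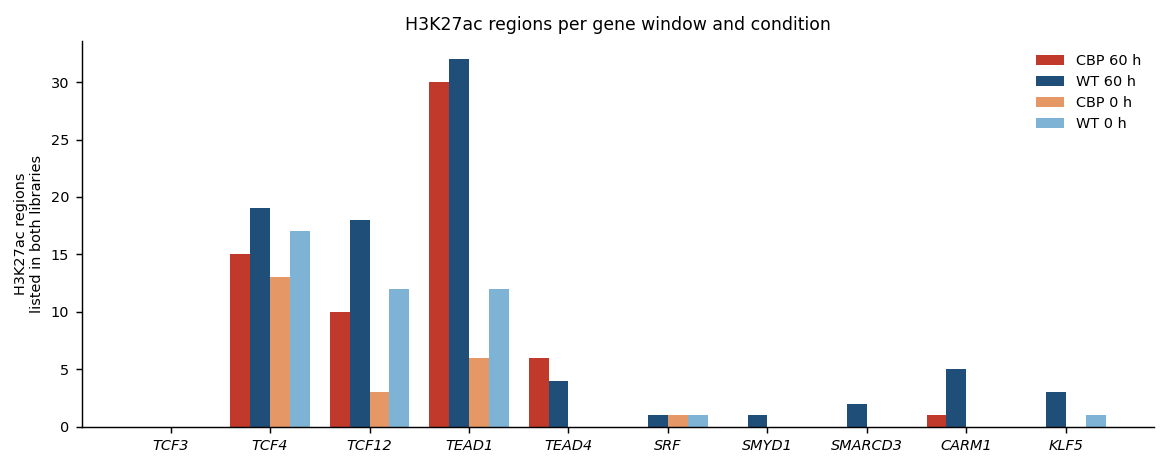
Number of H3K27ac regions listed in both libraries of a condition, for each member. TEAD1 has 30 in CBP and 32 in WT at 60 h, against 6 in CBP and 12 in WT at 0 h, whereas CARM1 has 1 in CBP and 5 in WT at 60 h and none at 0 h.

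Of 45 other partners and cofactors of MyoD, 43 were in the gene table. For H3K4me3, 41 were tested. In CBP against WT at 0 h 23 were lower (56.1%, against 41.7% of all genes) and none higher (against 1.19%), and at 60 h 8 were lower (19.5%, against 7.36%) and 3 higher (7.32%, against 10.3%). In WT 24 were higher (58.5%, against 42.2%) and 5 lower (12.2%, against 5.85%) at 60 h against 0 h. For H3K27ac, 40 were tested, and in CBP 18 were lower at 0 h (45%, against 32.6%) and 17 at 60 h (42.5%, against 45.8%). None was higher in CBP, against 1.4% of all genes at 0 h and 3.03% at 60 h. In WT 24 were higher (60%, against 46.8%) and 3 lower (7.5%, against 10.6%) at 60 h. The medians in CBP against WT were -0.28 for H3K4me3 at 0 h and -0.75 for H3K27ac at 0 h, and 0.01 and -0.76 at 60 h, beside -0.19, -0.46, 0.04 and -0.72 for all genes.

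MYOD1 itself had 3.42 and 3.29 kb of H3K4me3 in CBP at 60 h, 3.73 kb in each WT library at 60 h, none in CBP at 0 h and 1.13 and 0.857 kb in WT at 0 h. Its rise in WT was 1.51 (adjusted p = 6.39e-05), and the 0 h deficit of CBP was called (adjusted p = 0.000163) but not among peaks of -log10 q 5 or more (adjusted p = 0.229). MYOG, the MyoD target that drives terminal differentiation, had 2.62 and 2.73 kb in CBP at 60 h, 4.03 and 3.93 kb in WT at 60 h and none at 0 h. MEF2C, which cooperates with MyoD, had 5.00 and 4.72 kb in CBP at 60 h, against 9.68 and 8.95 kb in WT at 60 h (-0.87, SE 0.11, adjusted p = 0.00394).

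MYF6 encodes MRF4, a myogenic factor related to MyoD. Its H3K4me3 was 0 in both CBP libraries at 60 h, 0.897 and 0.846 kb in WT at 60 h, 0 in both CBP libraries at 0 h and 0.531 and 0.979 kb in WT at 0 h. It was called lower in CBP at both times (adjusted p = 0.00295 at 60 h and 0.0019 at 0 h), the 0 h call ending without the 5 kb extension (adjusted p = 0.293). MYF6 entered this test through WT libraries alone, so it could only have been called lower in CBP. VGLL2, a cofactor of TEAD proteins in muscle, had 2.31 and 2.26 kb of H3K4me3 in CBP at 60 h, against 4.38 and 4.57 kb in WT at 60 h (-0.84, SE 0.08, adjusted p = 0.00183).

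EP300, which encodes the acetyltransferase p300, had no H3K27ac in CBP at 60 h, against 1.63 and 1.75 kb in WT at 60 h (adjusted p = 0.00011). KDM6A, which encodes an H3K27 demethylase, had 0.488 and 0 kb of H3K27ac in CBP at 60 h, against 2.103 and 1.95 kb in WT at 60 h (-1.85, SE 0.33, adjusted p = 0.00769; adjusted p = 0.057 without the first WT library). H3K27ac of SKI, a corepressor gene, rose in WT to 8.02 and 7.97 kb at 60 h, against 0.807 and 0.994 kb at 0 h (2.60, SE 0.70, adjusted p = 0.0253). The SKI call ended when lists were cut to equal length (1.07, adjusted p = 0.232) and without any 1 WT library (2.51 to 2.70). TEAD3, a further TEAD family gene, had 2.82 and 2.54 kb of H3K4me3 in CBP at 60 h, 2.55 and 2.53 kb in WT at 60 h, none in CBP at 0 h and 0.556 and 0.671 kb in WT at 0 h. Its fall in CBP at 0 h was called (adjusted p = 0.000233), but not among peaks of -log10 q 5 or more (adjusted p = 0.324) or when lists were cut to equal length (adjusted p = 0.323). TWIST1 competes with MyoD for E proteins. Only 2 genes of the list were tested in H3K27me3, and TWIST1 was the 1 called. It had 6.403 and 6.62 kb in CBP at 0 h and none in the other 6 libraries (CBP against WT at 0 h, adjusted p = 0.000262). It entered the test through the CBP libraries of 0 h alone, so in that comparison it could not have been called lower. Over the genome, H3K27me3 peaks covered 34.7 and 25.1 Mb in CBP at 0 h, against 1.11 and 3.12 Mb in WT at 0 h. Of all 4203 genes tested for H3K27me3, 77.2% were called higher and 0% lower in CBP against WT at 0 h, 12.1% higher and 2.62% lower in CBP against WT at 60 h, and 20.9% higher and 0.619% lower in WT at 60 h against 0 h. The difference between the times was called higher for 3.95% and lower for 53% of them.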

How the data were processed

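CUT&Tag peak lists of 24 libraries (3 marks, 4 conditions, 2 libraries each) were used, and the 8 IgG samples were not used here. The submitters' processing notes name Trimmomatic, MACS2 2.1.0 and the build Sscrofa11.1. The sources used here do not give the aligner, options, calling control or depth, and the precision of a library is therefore unknown. The authors deposited 1 list per library, not pooled, broad for H3K27me3 and narrow for the other 2 marks. Per the file values, the deposited score is the display score of MACS2, the deposited ratio is the fold enrichment within that library, the deposited -log10 p and q give the significance of each peak, and a last column of the narrow lists is the summit offset. These were computed within a library, so only peak positions were compared. The -log10 q served for a stricter filter and the -log10 p for ranks within a list.

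The labels conflict. The treatment field says proliferation for 60 h samples too, the cell line and growth fields name C3H cells in RPMI beside porcine satellite cells, and the dose of 5 uM/ml has an unclear unit. Times were taken from titles. The 10 genes and the lists were chosen with earlier results of these data known.

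Lengths were computed (Python 3.11.15 with pandas 2.3.3 and numpy 2.4.6) after overlapping peaks were merged. Gene positions were checked against the lists: 68.2 to 74.1% of H3K4me3 peaks lay within 1 kb of a gene end, and 9.04 to 11.1% after a shift of 200 kb. Each mark had 1 limma 3.58.1 fit (R 4.3.3, eBayes with trend and robust) of its 8 libraries, checked on simulated data. An exact test of 2 against 2 libraries cannot give a p below 0.333. Named genes were all 10 members and, per mark and comparison, at most the 3 called partner genes with the largest change, of which 1 is not reported here. Alternatives were 100 or 2000 bp added, no filter, quantile scaling, peaks of -log10 q 5 or more, lists cut to equal length, gene ends only, the span without extension, a replicate block, leaving out each library, and a 50% overlap for regions. Figures used matplotlib 3.10.9.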

Additional observations from a re-analysis of the deposited data

Results flagged for a closer look

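For each gene below, the difference between CBP and WT cells was not the same at 60 h as at 0 h by the contrast of both times in limma, and the value given is its adjusted p. In H3K4me3 the genes with a larger CBP minus WT value at 60 h were TCF4 (0.00663), TCF12 (0.000424), TEAD1 (0.0188), SMARCD3 (0.00115), MYOD1 (0.000794), TEAD3 (0.000794) and ID3 (0.0102). SMYD1 had a smaller one (0.00354), with no H3K4me3 at 0 h in either group. The MYOD1 call ended among peaks of -log10 q 5 or more and with lists cut to equal length (adjusted p = 0.448 in each), the TEAD1 call under quantile scaling (adjusted p = 0.591) and without any 1 of 3 libraries (adjusted p = 0.0536 to 0.0585), and the TCF4 call with gene ends only (adjusted p = 0.0762).

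In H3K27ac the value was larger at 60 h for TCF12 (0.00164), TEAD1 (0.00287), YAP1 (0.0045) and MEIS1 (0.000852). It was smaller for SMYD1 (0.000609) and CARM1 (0.000609), neither of which had H3K27ac at 0 h. The TCF12 call ended with gene ends only (adjusted p = 0.918), and the TEAD1 call there (adjusted p = 0.164) and with lists cut to equal length (adjusted p = 0.0581). YAP1, a coactivator of TEAD proteins, had 7.61 and 5.44 kb of H3K27ac in CBP at 60 h, 4.64 and 3.80 kb in WT at 60 h, 0.507 and 0.446 kb in CBP at 0 h and 1.88 and 2.07 kb in WT at 0 h. ID3, an inhibitor that binds E proteins, had 3.95 and 3.15 kb of H3K4me3 in CBP at 60 h, 2.88 and 3.21 kb in WT at 60 h, 2.74 and 2.19 kb in CBP at 0 h and 4.17 and 4.50 kb in WT at 0 h. The YAP1 call ended among peaks of -log10 q 5 or more (adjusted p = 0.379) and with lists cut to equal length (adjusted p = 0.785), and the TEAD3 call ended in both settings too (adjusted p = 0.466 and 0.467). The MEIS1 call ended with lists cut to equal length (adjusted p = 0.172). The ID3 call ended without the 5 kb extension (adjusted p = 1) and at that q (adjusted p = 0.0501).

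Of 2 partner genes tested in H3K27me3, TWIST1 was the 1 with such a difference (0.00193). It was smaller at 60 h, and H3K27me3 was listed there in CBP at 0 h only.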

How the results depend on the processing

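Of 1280 values of members under alternatives, 1105 kept direction and call, 46 lost a call, 44 gained one, 78 moved with no call in either setting and 7 turned. Members called in H3K4me3 were 2 in place of 1 in CBP against WT at 60 h with gene ends only, and 4 in place of 7 in WT at 60 h against 0 h under quantile scaling. In H3K27ac they were 3 in place of 5 in CBP against WT at 60 h with 100 bp added, and 2 in place of 4 for the difference between the times with gene ends only. Of the 7 values that turned, 2 lost their call: TCF3 in H3K4me3 at 0 h, 0.07 under quantile scaling, and TCF12 in H3K27ac for the difference, -0.10 with gene ends only. The other 5 were called only after turning. Under quantile scaling they were SRF in H3K4me3 at 0 h (0.20) and TCF4 in H3K27ac in WT at 60 h against 0 h (-0.48). Without the first CBP library of 60 h they were TCF3 in H3K27ac in CBP against WT at 60 h (-0.88) and for the difference (-0.88), and SRF in H3K27ac for the difference (-0.77). Without the second, they were 1.07, 1.07 and 0.99. The cause was not tested.

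Leaving out 1 library gave 4 to 6 members called in H3K4me3 for CBP against WT at 0 h, 1 at 60 h, 6 to 9 for WT at 60 h against 0 h and 4 to 6 for the difference. In H3K27ac it gave 2 to 4, 2 to 7, 5 to 8 and 3 to 8. For H3K27ac in CBP against WT at 60 h the count was 3 without the first and 2 without the second WT library of 60 h. For the difference it was 8 without the first and 7 without the second CBP library of 60 h.

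H3K4me3 regions lost in CBP at 0 h were 2, or 6 when 50% of the region had to be covered and 0 among peaks of -log10 q 5 or more. With 50% covered, 2 were gained and 1 lost in CBP at 60 h. With that q, H3K27ac regions gained were 0 in CBP at 0 h, 2 in CBP at 60 h and 25 in WT at 60 h. The share over all regions was not computed under these settings, and the stricter q also changes the set of regions. These counts therefore cannot be read as a result about the members. Over all genes, quantile scaling changed the split of calls in CBP against WT at 0 h to 2143 higher and 1821 lower in H3K4me3, against 160 and 5587 without it, and to 917 and 1598 in H3K27ac, against 144 and 3352. In H3K27ac in CBP against WT at 60 h the split was 1197 higher and 1381 lower, against 312 and 4714. In WT at 60 h against 0 h it was 2431 and 3615 in H3K4me3, against 5653 and 783, and 2131 and 2149 in H3K27ac, against 4822 and 1093.

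It is not stated whether replicate numbers pair the libraries. The deviations of same-numbered libraries correlated between -0.09 and 0.18, which cannot show whether they shared a culture or batch. With a replicate block, 74 of 76 member values kept their call and 2 passed newly, both TCF4 in H3K27ac (adjusted p = 0.0494 in WT at 60 h against 0 h and 0.034 for the difference), and the counts of members called were 8 and 5. Peak lists with no reads behind them cannot separate an absent mark from one under the calling limit.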
